A study of Bos taurus with 18 samples.

Results

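The complement genes C3, C1R, C1S, CFB, CFD, CFI and SERPING1 were examined in bovine mesenchymal stem cells (MSCs), the multipotent stromal progenitors of bone marrow. These 7 genes were taken as a list by symbol from the 16989 genes counted, by a rule that uses no measured value although earlier results of these data were known, and 6 of the 7 had at least 1 read. RNA was sequenced from 17 clonal populations (clones A to Q), each expanded from a single cell, and from 1 heterogeneous population of many cells. The cells came from tibial and femoral marrow of juvenile cattle aged 3 to 6 months and were grown on tissue culture plastic in DMEM with fetal bovine serum and antibiotics, and RNA of the clones was taken from monolayers at passage 1, with no inducing factor named. The heterogeneous population had the same labels, and its passage was not stated separately. Whether all populations came from 1 animal was not stated, so differences between clones and between animals cannot be told apart. Each population was sequenced once, so every p-value measures the spread between these samples and not that between repeat cultures.

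Complement is a cascade of plasma proteins that marks cells and microbes for clearance and recruits leukocytes. In the classical pathway the proteases C1r and C1s, held on the recognition molecule C1q, cleave C4 and C2 to build an enzyme that cleaves C3, the protein on which all routes converge. Factor B and factor D build the corresponding enzyme of the alternative pathway, factor I degrades the active fragments of C3 and C4, and the C1 inhibitor encoded by SERPING1 inactivates C1r and C1s. The liver supplies most of these proteins in plasma, and fibroblasts and other stromal cells make several of them locally.

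The clones held 11484812 to 18458157 reads on genes (median 14193790) and the heterogeneous population 16092501. Levels are given in CPM, reads on a gene scaled to the same total of reads on genes in every sample, and logarithms are of CPM + 0.25. At these depths 3 reads, the limit that a count of 0 allows, came to 0.1625 to 0.2612 CPM, and this limit and all intervals given with levels cover counting error only. All 18 genes of a list of MSC markers had reads, and their summed level was 53400 to 169000 CPM in the clones and 178000 CPM in the heterogeneous population. CPM does not correct for transcript length, so each gene was compared between samples and not with other genes.

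C1S, the protease that cleaves C4 and C2, ranged from 1.41 CPM (19 reads) in clone G through a median of 27.5 CPM to 495 CPM (7182 reads) in clone Q. The heterogeneous population held 244 CPM (3924 reads). Clones N (218 CPM), P (265 CPM) and Q stood above the other 14 clones, of which the highest was clone K at 49.0 CPM, and clone G stood below the next lowest, clone A, at 6.18 CPM. The exact 95% intervals of neighbouring samples did not overlap at any step from clone D upward, so that the order D, K, N, heterogeneous, P, Q held against counting error. In bulk RNA fewer cells of a type and less RNA per cell cannot be told apart, here and in the levels that follow.

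C1R, which activates C1s within the C1 complex, followed nearly the same order. Its level ran from 0.298 CPM (4 reads) in clone G through a median of 4.39 CPM to 139 CPM (2012 reads) in clone Q. Clone N held 41.9 CPM, clone P 80.8 CPM and the heterogeneous population 80.0 CPM, and the last 2 could not be ordered because their intervals overlapped. The remaining 14 clones lay at or below 11.5 CPM (clone H). C1R and C1S are next to each other in the RefSeq gene order of the ARS-UCD2.0 cattle assembly.

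SERPING1, the inhibitor of both proteases, varied over a narrower range. It was lowest in clone I at 3.77 CPM (52 reads), had a median of 15.5 CPM, and was highest in clone Q at 82.8 CPM (1201 reads). The heterogeneous population held 61.6 CPM (991 reads), above every clone but Q, although it could not be ordered against clone P (59.9 CPM) because their intervals overlapped. Clone N, which stood with P and Q for C1S and C1R, was not set apart from its neighbours for the inhibitor, whereas clones P and Q again stood above the other clones.

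**Figure D1:**
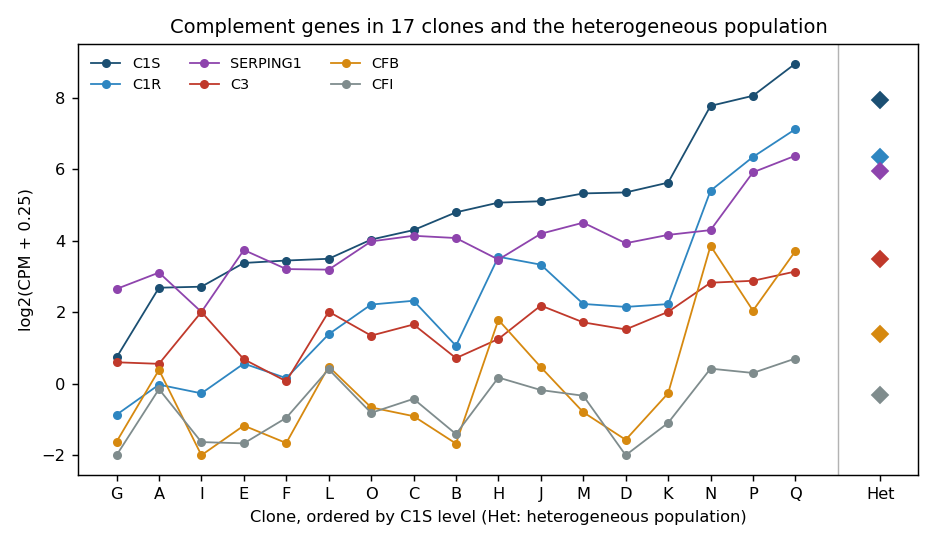
The horizontal axis gives the 17 clones ordered by their C1S level, with the heterogeneous population at the right, and the vertical axis gives log2(CPM + 0.25). Each line is 1 gene and each diamond its level in the heterogeneous population. C1S and C1R rise steeply at clones N, P and Q, SERPING1 at P and Q only, and CFI stays near the detection limit.

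C3, the central protein of the cascade, was present at low level in every sample. The clones ran from 0.797 CPM (12 reads) in clone F through 2.90 CPM to 8.55 CPM (124 reads) in clone Q, and the heterogeneous population held 10.9 CPM (175 reads), above all 17 clones. Intervals of neighbouring samples overlapped at every step of this order, so only samples far apart in it could be told apart by counting error.

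CFB, the alternative pathway counterpart of C2, was near the detection limit in most clones and clearly present in a few. It had 0 reads in clone I, 1 read each in clones B, D, F and G, and a median of 0.382 CPM (6 reads). Clones H (3.19 CPM), P (3.87 CPM), Q (12.8 CPM) and N (14.2 CPM, 196 reads) were highest, and the heterogeneous population held 2.36 CPM (38 reads). The intervals of clones N and Q overlapped, and both lay above that of clone P.

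CFI, the protease that degrades active C3 and C4 fragments, never exceeded 20 reads (1.38 CPM, clone Q). It had 0 reads in clones D and G, a median of 0.495 CPM and 9 reads (0.559 CPM) in the heterogeneous population, and no step in its order was beyond counting error. CFD, the protease that activates factor B, was listed at 0 in all 18 samples. A value of 0 in this table need not mean that the transcript was absent, since 2548 genes (15%) were at 0 in every sample and these included PGK1, a glycolytic enzyme that most cells use.

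Among the 11477 genes above 1 CPM in at least 1 clone, the spread of C1R, C1S and CFB between clones was near the top. The SD of the log2 level was 2.29 for C1R, 2.09 for C1S and 1.85 for CFB, against a median of 0.35 over all genes, and these SDs exceeded those of 99.9%, 99.8% and 99.7% of genes. SERPING1 (SD 1.06), CFI (0.90) and C3 (0.89) exceeded 94.0%, 90.9% and 90.7% of genes. From the lowest to the highest clone C1R differed 466-fold, C1S 350-fold, SERPING1 22.0-fold and C3 10.7-fold, while the differences for CFB and CFI were at least 65.5-fold and 5.28-fold against a floor of 3 reads in the lowest clone. The variance between clones relative to that expected from counting alone was 3300 for C1S, 1080 for C1R, 297 for SERPING1, 117 for CFB, 22.3 for C3 and 5.18 for CFI, with a median of 18.6 over all genes. C3, with a median of 41 reads per clone, was near 18.6 and CFI, with 7 reads, below it, while both proteases were far above it. This ratio grows with read number at equal relative spread, so it does not rank genes of unlike read number by relative spread. By SD, C3 and CFI exceeded 90.7% and 90.9% of genes.

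The same clones were high for most of the genes. Clone Q was among the 3 highest clones for all 6 detected genes, clones N and P were for 5 each, and clones L and M for 1 each. At the other end clone G was among the 3 lowest for 5 genes and clones A and I for 4 each. To ask whether any 1 clone differed from the rest, each was compared with the other 16 by edgeR's quasi-likelihood test, in which the single clone is assumed to vary as the others do. None of the 102 tests of a complement gene passed an adjusted p of 0.05 with edgeR or with DESeq2, where 0.0450% of all gene tests did with edgeR. With edgeR 5 had an unadjusted p under 0.05, of which 4 were in clone Q and higher there: SERPING1 (log2 difference 2.30, SE 0.69, p = 0.00385), C1S (3.33, SE 1.23, p = 0.0145), C1R (3.68, SE 1.38, p = 0.0156) and C3 (1.49, SE 0.69, p = 0.044), each with an adjusted p of 0.758 in edgeR. The fifth was CFI in clone G, where it had 0 reads. The smallest adjusted p of the 102 was 0.323, for CFB in clone N (log2 difference 3.04, SE 1.50, edgeR).

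The next comparison asked whether the complement genes rose and fell together over the 17 clones. All 15 pairs of the 6 detected genes were positively related, with Pearson r of log2 levels from 0.54 to 0.949 and Spearman rho from 0.478 to 0.887. Two-sided permutation p-values from 100000 resamples reached at most 0.0233 for r and 0.0542 for rho, and the smallest they can give is 1e-05. Because clones N, P and Q stood apart for C1R and C1S, r was also taken over the other 14 clones as a description. It remained positive in all 15 pairs but was lower, from 0.194 to 0.849 with a median of 0.469.

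**Figure D2:**
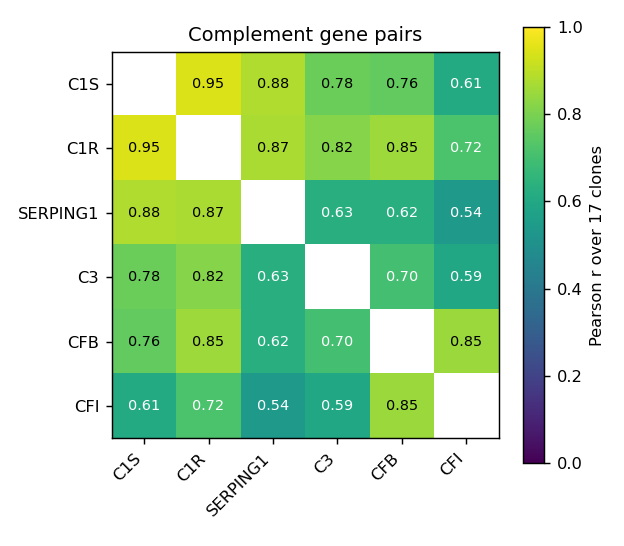
The matrix gives Pearson r of log2(CPM + 0.25) over the 17 clones for each pair of the 6 detected complement genes, with the colour scale from 0 to 1. The highest r is that of C1R with C1S, and the lowest is that of CFI with SERPING1.

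C1R and C1S, the 2 proteases of the C1 complex, were the closest pair (r = 0.949, rho = 0.882, permutation p = 1e-05 for each). A slope fitted to all genes with limma gave a log2 C1S change of 0.87 (SE 0.07) per log2 unit of C1R, with an adjusted p of 6.61e-07 over 11476 genes. Of all those genes C1R ranked second by r for C1S and C1S ranked behind 2 others for C1R. Without the 2 clones farthest from the median r was 0.904 and 0.93, depending on which gene set the median, and without N, P and Q it was 0.849.

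The fit in the other direction gave a C1R change of 1.04 (SE 0.08) per log2 unit of C1S, and the ratio of the pair varied between samples. Where both genes were abundant, the number of C1S reads per C1R read was 3.57 in clone Q, 3.28 in clone P, 5.20 in clone N and 3.05 in the heterogeneous population. Over all clones it had a median of 5.20, that of clone N, and ran from 2.90 in clone H to 15 in clone B. The ratio did not order the clones as the level did, since clone O (3.67) and clone J (3.48) lay with Q at much lower levels of both genes.

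**Figure D3:**
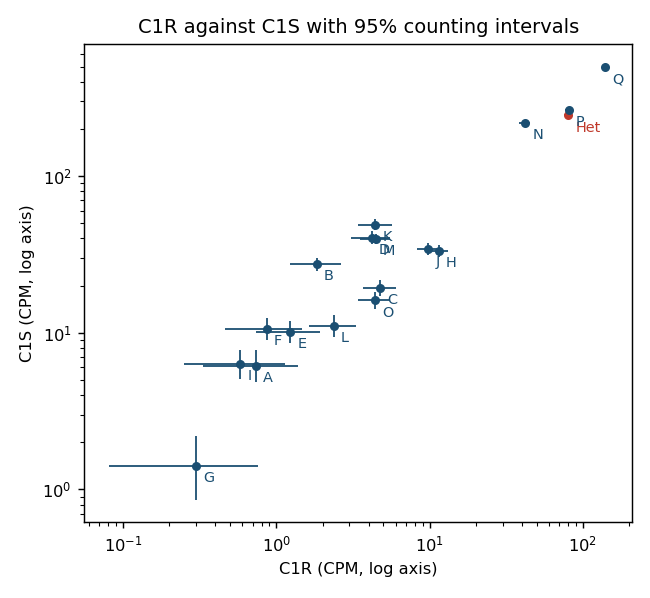
Both axes give CPM on a log scale, with C1R on the horizontal and C1S on the vertical axis. Each point is 1 sample with its exact 95% counting interval on both axes, the heterogeneous population in red. The heterogeneous population lies beside clone P, and the other 14 clones form a band of lower levels that ends at clone G.

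SERPING1, the inhibitor, followed both of its target proteases. Its r was 0.882 with C1S and 0.874 with C1R, with adjusted p-values from limma of 0.000136 and 0.000218, and over the 14 clones without N, P and Q r was 0.789 and 0.72. SERPING1 was related less closely to C3 (r = 0.627), CFB (0.625) and CFI (0.54).

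CFB and CFI, of the alternative pathway and its control, were also related (r = 0.85, rho = 0.882), and their r was nearly the same without clones N, P and Q (0.826). CFI had few reads, so these values rest on sparse counts. CFB was also related to C1R (r = 0.854, limma adjusted p = 0.000391), with r = 0.599 over the 14 clones. C3 was related most closely to C1R (r = 0.82, limma adjusted p = 0.00322) and less to C1S (0.777) and CFB (0.702).

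Each gene of a pair was fitted in turn as the predictor, and 23 of the 30 fits passed an adjusted p of 0.05 in limma over all genes. This held in both directions for 10 pairs, in 1 direction for C3 with SERPING1, C1S with CFI and CFB with SERPING1, and in neither for CFI with C3 or SERPING1. As background, 8.17% of all gene tests in the 6 fits passed with a positive slope. The 30 fits came to 10 past the threshold without the 2 clones farthest from the median of the predictor and to 16 without clone Q alone. The number of calls therefore depended on a few clones.

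Library size and the share of reads outside genes were set against the 6 genes as well. Of these 12 relations over the 17 clones only CFB with the share of reads outside genes had a permutation p under 0.05 (r = 0.52, rho = 0.336, permutation p = 0.0305 and 0.188, Benjamini-Hochberg p = 0.366). Its r fell to 0.228 without the 2 clones farthest from the median. All other Benjamini-Hochberg p-values were 0.366 or above, and the part of these properties in the relations was not tested further.

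For each complement gene the 3 genes with the most similar level over the 17 clones were found by Pearson r. BOC, a surface protein that binds hedgehog ligands, ranked first for C1S (r = 0.953) and was among the 3 for C1R (0.951). CD99L2, a membrane protein related to CD99, came after C1R for C1S (0.936). For C3, NEIL1, a DNA repair glycosylase, and the calpain CAPN11 had 0.904 each.

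CFB was followed most closely by BMPER (r = 0.939), a secreted protein that binds bone morphogenetic proteins, by C21H15orf27 (0.939) and by the T-box transcription factor TBX15 (0.936). SERPING1 was most like MXI1 (0.92), a transcriptional repressor that competes with MYC, P4HA3 (0.908), a collagen prolyl hydroxylase, and LEPREL2 (0.903), which modifies collagen prolines as well. CFI was most like the zinc finger factor SALL2 (0.882), the collagen-binding integrin ITGA10 (0.881) and the receptor GPR157 (0.857). All of these slopes passed in limma, with adjusted p-values from 8.42e-07 for BOC on C1R to 0.0102 for SALL2 and GPR157 on CFI. Over the 14 clones without N, P and Q these values of r lay between 0.716 and 0.898.

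The other genes of the cascade were read against C1S, the gene with the largest counts. Of the recognition and early classical or lectin pathway genes 6 reached 1 CPM in a clone, and 3 of these rose with C1S while none fell, where 11.1% of all genes rose and 5.87% fell. C4A, a substrate of C1s, rose by 0.55 (SE 0.10) log2 units per log2 unit of C1S (limma adjusted p = 0.00122) and ran from 20 reads to 513 in clone P. Its near-identical copy C4B was listed at 0, so reads of C4 cannot be assigned to 1 copy. COLEC12, a collectin scavenger receptor (slope 0.57, SE 0.16, limma adjusted p = 0.0216), and the lectin pathway protease MASP1 (0.29, SE 0.10, limma adjusted p = 0.0495) rose as well. Over the 14 clones without N, P and Q r was 0.321 for C4A, 0.112 for COLEC12 and 0.086 for MASP1.

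C2, the second substrate of C1s and the gene next to CFB in the RefSeq order, had a slope on C1S of -0.10 (SE 0.15, limma adjusted p = 0.696). Its highest clone was H with 343 reads, and its lowest had 12. The slope of C2 on its neighbour CFB was -0.01 (SE 0.17, limma adjusted p = 0.979). These values depended on clones N, P and Q, where CFB was among the highest and C2 low, with log2 levels of C2 of 0.42, 0.00 and 0.82. Over the other 14 clones r was 0.825 for C2 with CFB and 0.479 for C2 with C1S, given as a description. C1RL and MASP2, related proteases, did not pass against C1S. C1QA, C1QB and C1QC, which encode the C1q to which C1r and C1s bind, had at most 3, 0 and 1 reads in any clone.

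Of the terminal pathway, which builds the membrane pore, only C8G reached 1 CPM in a clone, and it rose with C1S (slope 0.23, SE 0.05, limma adjusted p = 0.00337). Without clones Q and G C8G did not pass (limma adjusted p = 0.0581), and its r without N, P and Q was 0.681. C5, C6, C7, C8A, C8B and C9 had at most 4 reads in any clone. Among fluid-phase regulators CLU, a chaperone that also blocks pore assembly, rose with C1S by 0.74 (SE 0.09, limma adjusted p = 0.000133) and ran from 383 reads to 22737 in clone P, with r = 0.64 without clones N, P and Q. CFP, which stabilizes the alternative pathway enzyme, did not pass.

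The membrane regulators that protect host cells were read against C1S as well, and none of 3 tested passed. Of all genes 11.1% rose and 5.87% fell, so this does not set these regulators apart. CD46 (134 to 286 CPM) had a slope of -0.01 (SE 0.04), CD59 (29.2 to 48.3 CPM) one of -0.01 (SE 0.03), and SUSD4 one of 0.13 (SE 0.08). CD55 was listed at 0. Of the 2 receptor genes tested, C1QBP, which binds the globular heads of C1q and is mainly a mitochondrial protein, fell with C1S (slope -0.13, SE 0.04, limma adjusted p = 0.0285), and CALR had a slope of -0.10 (SE 0.04, limma adjusted p = 0.0661) that passed with TMM scaling (adjusted p = 0.0277). Without clones Q and G neither passed by library totals (limma adjusted p = 0.396 and 0.259).

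Several genes of the interferon response, which cells switch on when they sense virus or interferon, followed C1S. Of 19 tested, 10 rose and 2 fell, and the median r of the list was 0.642 against 0.057 over all genes. The genes that rose included the signalling factors IRF9 (slope 0.26, SE 0.03, r = 0.902, limma adjusted p = 0.000125) and STAT2, the antiviral effectors MX1, IFIT3, IFIT5, OAS1X and OAS1Y, the RNA sensor DDX58 and IFI6. The 2 that fell, PSMB9 and TAP1, serve antigen processing (slopes -0.27, SE 0.08, and -0.32, SE 0.08). All 12 calls held with TMM scaling, and 8 of the 10 that rose and none of the 2 that fell passed without clones Q and G. Over the 14 clones without N, P and Q the median r was 0.346 against -0.05 for all genes. MX1 and OAS1X did not exceed 22 reads in any clone, and OAS1X and OAS1Y are close copies between which reads may be split. OAS1X was above 1 CPM only in clone N or Q, where C1S was also high, so its entry into the test favoured a positive slope.

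Of 22 tested genes of the NF-kB and acute phase list 7 rose with C1S and 1 fell. STAT3, the transducer of interleukin 6 signals, was the most closely related (slope 0.12, SE 0.02, r = 0.863, limma adjusted p = 0.000815), and SAA3, an acute phase apolipoprotein, rose most (0.61, SE 0.11, limma adjusted p = 0.00177). The adhesion molecules ICAM1 and VCAM1, the mitochondrial dismutase SOD2, the transcription factor CEBPD and the NF-kB subunit RELB also rose, RELB only without TMM scaling (limma adjusted p = 0.0448, 0.0773 with TMM). The chemokine CXCL3 fell (slope -0.35, SE 0.09, limma adjusted p = 0.00988), and IL1RN passed with TMM scaling only, with a negative slope. Without clones Q and G 4 of the 7 passed, SAA3, STAT3, ICAM1 and SOD2, and without N, P and Q the median r of the list was 0.048. SAA3 had 0 reads in 12 of 17 clones, and VCAM1 had a median of 1 read over the clones. Such genes could enter the test through a few high clones alone.

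**Figure D4:**
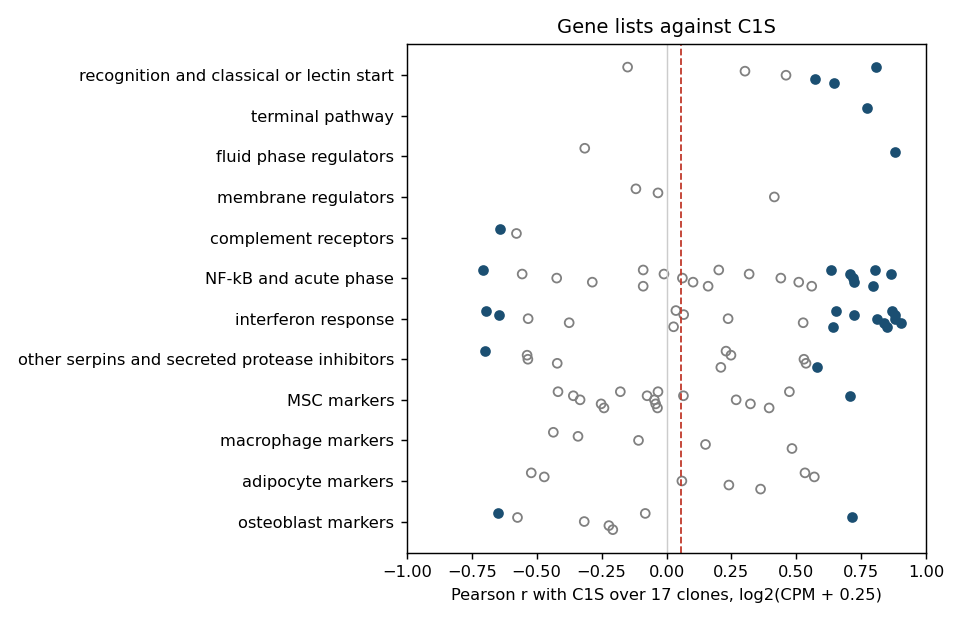
The horizontal axis gives Pearson r with C1S over the 17 clones for each tested gene of 12 lists, which form the rows. Filled points passed an adjusted p of 0.05 in limma over all genes, open points did not, and the dashed line marks the median of all genes (0.057). The interferon list has 10 filled points on the positive side and 2 on the negative, and the macrophage list has none.

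Most markers of other cell types did not pass against C1S, and neither did most genes, of which 11.1% rose and 5.87% fell. None of 5 tested macrophage markers and none of 7 adipocyte markers passed, which in lists this short does not set them apart from all genes. Of 17 MSC markers only VCAM1 rose. The endothelial receptor TEK rose (slope 0.29, SE 0.05, limma adjusted p = 0.00107), as did PHEX of the osteoblast list and TTR of the hepatocyte list, and SP7, an osteoblast transcription factor, fell. Among serpins and other secreted inhibitors SERPINF1 rose. Of 5 cartilage genes the study followed, PRG4, the lubricant of joint surfaces, rose (1.17, SE 0.18, limma adjusted p = 0.000452), as did COMP, while ACAN (0.54, SE 0.21, limma adjusted p = 0.0795), COL2A1 and SOX9 did not pass. PRG4 ran from 6 reads to 8292 in clone N, and what part the state of clone N has in these slopes was not tested. Without clones Q and G PRG4 and TEK passed (limma adjusted p = 0.00382 and 0.0385), and VCAM1, PHEX, TTR, SP7, SERPINF1 and COMP did not, with adjusted p-values from 0.0708 for PHEX to 0.329 for SERPINF1.

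CFB, of the alternative pathway, was read against the same lists. C4A (slope 0.70, SE 0.07, r = 0.921, limma adjusted p = 3.09e-05) and CLU (0.86, SE 0.10, r = 0.902, limma adjusted p = 5.58e-05) followed CFB closely, with r of 0.838 and 0.744 over the 14 clones without N, P and Q. COLEC12 and MASP1 rose too, and C8G did not pass (limma adjusted p = 0.0716). Here 11.1% of all genes rose and 3.58% fell.

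Of the NF-kB and acute phase list 7 of 22 genes rose with CFB and none fell. SOD2 (slope 0.51, SE 0.06, r = 0.904) and VCAM1 (0.68, SE 0.08, r = 0.916), both with a limma adjusted p of 5.65e-05, were the closest, and they were the 2 that passed without clones N and Q. VCAM1 had a median of 1 read over the clones and at most 47, in clone N, so its values rest on sparse counts. SAA3, ICAM1 and STAT3 rose as well. So did the NF-kB inhibitor NFKBIA and its family member NFKBIZ, both lost with TMM scaling (limma adjusted p = 0.0502 and 0.085). Of the interferon list 9 of 19 rose, led by IFIT3 (r = 0.922, limma adjusted p = 4.8e-05), with IRF9, MX1, IFI6, OAS1Y, OAS1X, DDX58, STAT2 and IFIT5, the last 2 lost with TMM scaling. TAP1, PSMB8 and PSMB9 fell. Only IFIT3 of the 9 passed without clones N and Q, and OAS1X, no longer above 1 CPM in any clone, was not tested there.

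Of 17 MSC markers VCAM1, THY1, PDGFRA and CXCL12 rose with CFB and COL1A1 fell, the last only without TMM scaling, and the median r of this list was 0.102 against 0.144 over all genes. FABP4, LPL and ADIPOQ of 7 adipocyte markers rose and CEBPA fell. PHEX rose (slope 0.50, SE 0.06, r = 0.925, limma adjusted p = 6.11e-05), with r = 0.887 over the 14 clones without N, P and Q, while RUNX2 and SP7 of the same osteoblast list fell. PHEX had a median of 5 reads over the clones and at most 36, in clone N, so its values rest on sparse counts. SERPINE2, TIMP2, TEK, APOA1, PRG4 and COMP rose, and SERPINH1 and TFPI2 fell, with TIMP2 and TFPI2 lost under TMM scaling. Of the genes in this paragraph only VCAM1, THY1 and PHEX passed without clones N and Q.

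The number of genes that followed a complement gene depended on scaling and on clones at the extremes. By library totals the genes that rose and fell numbered 1153 and 195 for C3, 1268 and 481 for C1R, 1269 and 674 for C1S and 1276 and 411 for CFB. With TMM scaling they were 489 and 342, 1062 and 852, 1279 and 1036, and 975 and 788. Without the 2 clones farthest from the median the genes called in either direction fell from 1348 to 39 for C3, from 1749 to 139 for C1R, from 1943 to 484 for C1S, from 1687 to 103 for CFB and from 717 to 23 for SERPING1, and were 380 and 402 for CFI.

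The heterogeneous population was compared with the 17 clones to ask whether its complement genes lay outside the clonal range. By level, without regard to counting error, C3 lay above 17 of 17 clones, SERPING1 above 16, C1R and C1S above 15 each, CFB above 13 and CFI above 10. The log2 differences were 1.80 (SE 0.72) for C3, 2.24 (SE 1.80) for C1R, 1.81 (SE 1.65) for C1S, 1.69 (SE 0.91) for SERPING1, 0.21 (SE 1.35) for CFI and 0.17 (SE 2.20) for CFB. Over the alternatives, all without a call, the difference ran from 2.12 to 4.2 for C1R, 1.69 to 3.27 for C1S, 0.11 to 0.80 for CFI and 0.02 to 2.06 for CFB, each highest with limma-voom, and leaving out clone Q alone gave 3.02 for C1R and 0.69 for CFB. None of the 6 passed an adjusted p of 0.05 with edgeR, DESeq2 or limma-voom, where edgeR called 1.22% of 11878 genes. In edgeR C3 alone had an unadjusted p under 0.05 (p = 0.0214, adjusted p = 0.539), with adjusted p from 0.077 to 0.742 over the alternatives, and the adjusted p of the other 5 genes was 0.674 or above.

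**Figure D5:**
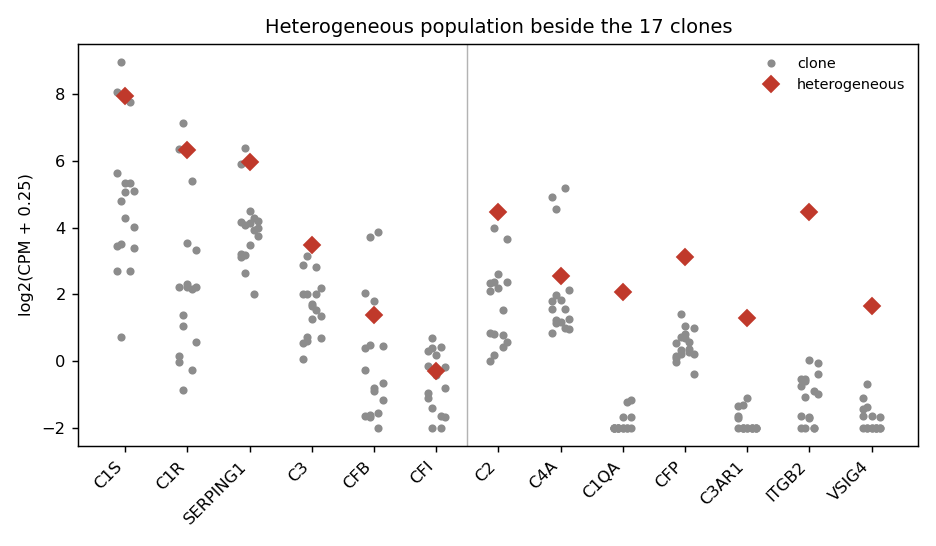
The vertical axis gives log2(CPM + 0.25), and each column is 1 gene, with the 6 detected complement genes at the left and other genes of the cascade and its receptors at the right of the line. Grey points are the 17 clones and red diamonds the heterogeneous population. The diamond lies within or just above the clones for the genes at the left, and far above them for C1QA, CFP, C3AR1, ITGB2 and VSIG4.

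Among the other genes of the cascade C1QA, C3AR1 and VSIG4 were nearly absent from the clones. They were tested only because of their reads in the heterogeneous population. Several of the other genes were higher there by edgeR. These were C1QA, a chain of C1q (64 reads, with no clone above 3, log2 difference 6.84, SE 0.78, adjusted p = 1.94e-05 in edgeR), CFP, which encodes properdin (136 reads against 8 to 34, 2.91, SE 0.37, adjusted p = 6.4e-05 in edgeR), the C3a receptor C3AR1 (35 reads against at most 3), the integrin chain ITGB2 shared by complement receptors (350 reads against at most 11) and VSIG4, a macrophage receptor for C3 fragments (46 reads against at most 5). C2 was above every clone with 355 reads against at most 343, but did not pass (log2 difference 2.18, SE 1.07, adjusted p = 0.656 in edgeR).

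Markers of macrophages, cells known to synthesize C1q, were higher in the heterogeneous population as well. Of a list of 20, which includes the 3 C1q chains and VSIG4, 17 were above every clone, and ITGAM and MARCO were at 0 throughout. Markers nearly absent from the clones, such as C1QA, VSIG4, TYROBP and CCR1, were tested only because of their reads in the heterogeneous population. The share of tested markers that passed is therefore not given. For the scavenger receptors CD163 and MSR1 the heterogeneous population had 667 and 317 reads and no clone exceeded 12 and 11. The list summed to 269 CPM against 13.6 to 102 CPM in the clones, and without CTSS, which the clones also express, to 183 CPM against 3.03 to 9.76 CPM. In clones N, P and Q, with the highest C1S and C1R, this sum was 6.75, 4.33 and 5.58 CPM. What part macrophages had in the levels of C3, C1R, C1S and SERPING1 in the heterogeneous population was not tested.

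Interferon and NF-kB genes were partly higher there too. Of 35 genes of the interferon list 16 lay above every clone, among them MX1, MX2, ISG15, IFI27 and IFIH1, and 0 below. Of 32 counted genes of the NF-kB and acute phase list 6 lay above every clone and 1 below. The 6 included the chemokines CCL2, IL8 and GRO1. MX2, IFI27 and IL8 were nearly absent from the clones and were tested only because of their reads in the heterogeneous population. MX1 had 259 reads there and no clone exceeded 22, whereas IRF9 and STAT2, which followed C1S over the clones, did not pass (log2 differences 0.85, SE 0.52, and 0.42, SE 0.31). The MSC, endothelial, adipocyte, osteoblast and cartilage lists were too short to be read in this comparison, since few genes of any kind passed.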

How the data were processed

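Poly-adenylated RNA of the 17 clones and the heterogeneous population was sequenced with single-end reads of 50 bp, aligned with STAR 2.3.0e to bosTau7 and counted per RefSeq gene with HTSeq. The authors deposited raw counts, 1 whole number per gene and sample, with no scaling applied. A second deposited table repeated these counts (0 of 305802 values differing). The strand setting was not given in the sources used here, and reads ambiguous between genes (0.164% to 0.192%) and outside genes (18.78% to 26.81%) are not counted on any gene.

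Counts on 16989 genes were tested with edgeR 4.0.16 (TMM, filterByExpr, quasi-likelihood) in R 4.3.3, with all 18 samples for the heterogeneous population and the 17 clones for each clone against the rest. In these comparisons the filter kept a gene with enough reads in the single sample alone. Counts of calls among such genes are therefore shaped by the filter. Relations over clones were fitted to log2(CPM + 0.25) with limma 3.58.1 (trended eBayes) for genes above 1 CPM in at least 1 clone, with Benjamini-Hochberg adjustment over all genes. A gene sparse in most clones could enter through clones N, P or Q alone, which favours a positive slope on C1S or CFB. Fold changes of low genes are understated on that scale. DESeq2 1.42.0, limma-voom, RLE factors, library totals, TMM scaling, other filters, a pseudocount of 1, all 18 samples and each clone left out were alternatives. The scripts were tested on simulated counts. Tables, permutations and figures were made in Python 3.11.15 with scipy 1.17.1, numpy 2.4.6, matplotlib 3.10.9 and pandas 2.3.3.

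Members and lists were chosen with earlier results of these data known. Genes named are the complement genes, genes of the lists that passed a test, others of a list by count, and the 3 genes most similar to each complement gene. Genes named for not passing were chosen after their values were seen. The RefSeq gene table used for neighbours is of ARS-UCD2.0, not the authors' build, and all 7 genes matched it. Its coordinates were not used, and sequences and promoter motifs were not analysed here. Some genes that met these rules are not reported here.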

Additional observations from a re-analysis of the deposited data

How the results depend on the processing

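No complement gene passed in the heterogeneous population or in any single clone under any alternative run, and the SDs between clones moved by under 1.5 times for C1R (1.98 to 2.36), C1S (1.84 to 2.16), C3 (0.71 to 0.92), CFB (1.25 to 1.91) and SERPING1 (0.88 to 1.09). That of CFI fell from 0.90 to 0.41 with a pseudocount of 1. DESeq2 called 91 genes in the heterogeneous population, against 145 with edgeR (137 to 155 with a clone left out), and 459 against 90 over the 17 clones each set against the rest. In the slopes on C3, 1348 genes became 831 with TMM scaling and 888 with all 18 samples. For CFI 380 became 756 with a pseudocount of 1 and 251 with TMM scaling.

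With 1 clone left out the genes called ranged from 373 to 1481 for C3, 758 to 1923 for C1R, 810 to 1985 for C1S, 607 to 1945 for CFB, 33 to 643 for CFI and 28 to 822 for SERPING1, and the calls among the 30 ordered pairs from 16 to 26 (main value 23). The lowest value came without clone Q except for CFB, where it came without clone N. A further 2 alternatives were chosen after seeing the data. Without the 2 clones farthest from the median the calls were 39 for C3, 139 for C1R, 484 for C1S, 103 for CFB and 23 for SERPING1, and 10 of the 30 pairs. Without clones N, P and Q every pair kept a positive r. These fits have fewer samples, and no other cause was tested.

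Of single slopes, differences and correlations, 729 recomputed values kept their side of the threshold or moved within their error, 43 lost the call, 21 gained it, 14 moved and 0 changed sign. TMM factors shifted samples by log2 -0.17 (clone E) to 0.22 (clone L). No paired analysis was possible because the labels link no clone to the heterogeneous population. Depth limits CFI, CFB in most clones and CFD.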
